A study of Mus musculus with 6 samples.

Results

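The 10 genes of neutrophil granules described here were followed on 6 arrays of sorted mouse limb cells. They were grouped by the stage at which a maturing neutrophil makes them, as primary granule genes (Mpo, Elane, Prtn3 and Ctsg), secondary granule genes (Ngp, Camp, Ltf and Lcn2) and late genes (S100a8 and Mmp8). All 10 were measured, out of 18193 genes in all, each by 1 probe set annotated with that gene alone. The rule took the probe set with the highest mean, but no member had more than 1, so it made no choice. The members were proposed with their array values already known, above all those of the Tie2-positive samples. Their levels are therefore a description, and no test below is independent evidence for them.

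The Tie2-positive population was sorted as lacking CD45 (the leukocyte antigen encoded by Ptprc) and Ter119 (an erythroid antigen), low for integrin alpha V (Itgav) and positive for Tie2, a receptor for angiopoietins and the product of Tek. The Tie2-negative population lacked CD45, Ter119, integrin alpha V and Tie2. Each population had 3 arrays, all from fore and hind limbs of mice at postnatal day 3, with the limbs of a litter pooled and no treatment. Wild type is the genotype given in the labels, though 1 protocol mentions GFP-labelled mice. A dash after an antigen in a title was taken to mean negative, and Ter119 stands in the titles but not among the antibodies the protocol lists. Whether the 3 samples of each population stem from different litters is not stated, and p-values therefore measure the spread among these samples only, part or all of which may be technical.

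A neutrophil makes its granule proteins in order as it matures in bone marrow. Promyelocytes fill the primary (azurophil) granules with myeloperoxidase and serine proteases, and myelocytes and metamyelocytes then fill the secondary (specific) granules with lactoferrin, lipocalin 2 and cathelicidin. Gelatinase granules and the cytosolic S100 proteins are associated with later stages. The mRNAs of the granule proteins are largely switched off again before the mature cell leaves the marrow.

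The 2 sorted populations differed in the gate gene Tek, and the leukocyte gene Ptprc did not follow the gate. Tek had log2 levels of 12.06, 10.86 and 9.80 in Tie2-positive replicates 1, 2 and 3, against 4.81, 4.79 and 4.90 in Tie2-negative replicates 1, 2 and 3. Ptprc had log2 levels of 4.87, 9.95 and 11.23 in Tie2-positive replicates 1, 2 and 3, against 9.52, 10.41 and 9.42 in the Tie2-negative replicates. Although both gates excluded CD45, only Tie2-positive replicate 1 among the 6 arrays was low for Ptprc. The gates used the CD45 protein, whereas the arrays read Ptprc mRNA, here by 1 of its 2 probe sets, so the 2 measures need not match. Tie2-positive replicate 1 also stood apart over the whole array. Over 18193 genes it correlated at 0.929 and 0.898 with Tie2-positive replicates 2 and 3, which correlated at 0.980 with each other, and within the Tie2-negative population the range was 0.969 to 0.983. Tie2-positive replicates 2 and 3 correlated at 0.932 and 0.927 with Tie2-negative replicate 3, slightly better than with Tie2-positive replicate 1. For Tie2-positive replicate 1 the value with Tie2-negative replicate 3 was 0.825. Levels are on the log2 scale after quantile normalization throughout, and because probe sets differ in response, each gene is compared only with itself between arrays.

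The primary granule genes were high on Tie2-positive replicates 2 and 3 and low on replicate 1. Mpo, the peroxidase that makes hypochlorous acid, had log2 levels of 5.98, 12.50 and 14.11 in Tie2-positive replicates 1, 2 and 3, against 5.84, 8.49 and 9.07 in Tie2-negative replicates 1, 2 and 3. Replicate 3 thus stood 8.13 above replicate 1 within the same population, a 280-fold difference in array signal. Prtn3, the serine protease proteinase 3, had levels of 5.82, 11.88 and 13.81 in Tie2-positive replicates 1, 2 and 3, against 5.90, 6.88 and 7.50 in the Tie2-negative replicates. Ctsg (cathepsin G, a chymotrypsin-like protease) had levels of 6.09, 11.21 and 13.47, against 5.69, 6.85 and 7.66 in the Tie2-negative replicates. For both proteases Tie2-positive replicates 2 and 3 lay above every Tie2-negative array, while replicate 1 lay below all of them for Prtn3 and above only the lowest for Ctsg. Elane, neutrophil elastase, had levels of 6.08, 8.89 and 10.97 in Tie2-positive replicates 1, 2 and 3, against 6.35, 6.41 and 6.44 in the Tie2-negative replicates. Elane was the member whose Tie2-negative arrays differed least, by 0.09 from lowest to highest. Because these are bulk samples, fewer cells of a type and less RNA per cell cannot be told apart.

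**Figure D1:**
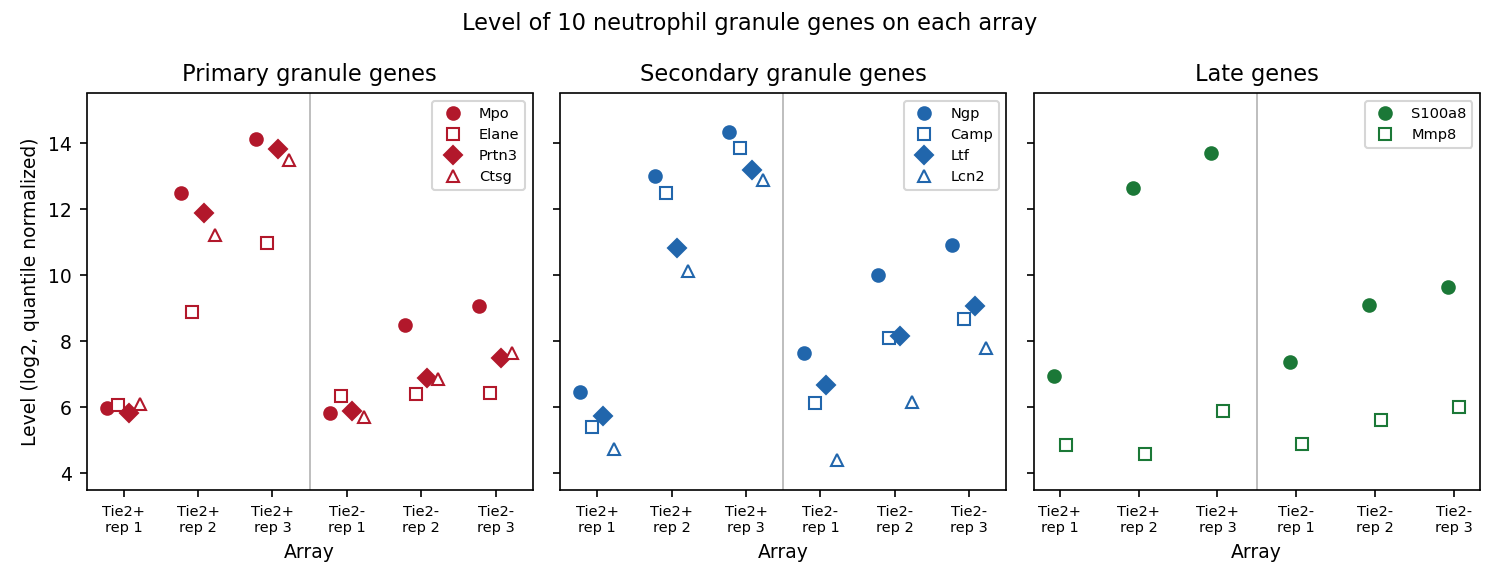
Log2 level of each gene (vertical axis) on each of the 6 arrays (horizontal axis), with Tie2-positive replicates left of the line and Tie2-negative replicates right of it, in 1 panel per granule class. Each point is 1 gene on 1 array. All genes except Mmp8 are high on Tie2-positive replicates 2 and 3 (8.89 to 14.34) and low on replicate 1 (4.75 to 6.94).

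Elane and Prtn3 are neighbouring genes on mouse chromosome 10, with no other protein-coding gene between them in the RefSeq annotation (GRCm38.p6). Both were on the same side of the Tie2-negative arrays on each Tie2-positive array. The 250 bases before their annotated starts are shown because all 4 primary promoters share a sequence that none of the secondary ones has. The capitals mark AGGAAGT, which holds the GGAA core bound by ETS-family factors such as PU.1, a regulator of myeloid genes. The letters were chosen with the promoters in view and were searched on both strands.
Prtn3: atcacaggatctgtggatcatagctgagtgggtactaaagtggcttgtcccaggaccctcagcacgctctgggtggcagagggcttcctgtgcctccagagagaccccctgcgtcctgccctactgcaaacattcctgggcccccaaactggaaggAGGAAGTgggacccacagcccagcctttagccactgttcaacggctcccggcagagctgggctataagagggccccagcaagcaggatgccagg
Elane: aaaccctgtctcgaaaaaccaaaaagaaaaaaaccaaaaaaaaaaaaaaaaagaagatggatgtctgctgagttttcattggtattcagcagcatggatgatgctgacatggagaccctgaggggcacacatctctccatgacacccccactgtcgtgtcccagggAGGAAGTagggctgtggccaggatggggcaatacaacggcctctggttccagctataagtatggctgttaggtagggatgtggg
The Prtn3 stretch is chr10:79879417-79879666 on the plus strand, and the Elane stretch is chr10:79886062-79886311 on the plus strand, both from RefSeq's GRCm38.p6. AGGAAGT, on either strand, was found before 4 of 4 primary genes, 0 of 4 secondary genes and 2 of 2 late genes, against 7.69% of 32851 promoter entries of the same 250-base length. Its first base lies 94 bases before the start of Prtn3, 84 before Elane, 206 before Ctsg and 223 before Mpo. A match is a description of the letters and not a site of binding.

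The secondary granule genes had the same order on the Tie2-positive arrays, with more spread among the Tie2-negative arrays than the primary genes other than Mpo. Ngp, a neutrophilic granule protein related to the cathelicidins, had log2 levels of 6.45, 13.01 and 14.34 in Tie2-positive replicates 1, 2 and 3, against 7.64, 9.99 and 10.92 in Tie2-negative replicates 1, 2 and 3. Camp, the precursor of the antimicrobial peptide cathelicidin, had levels of 5.41, 12.47 and 13.85 in the Tie2-positive replicates, against 6.14, 8.11 and 8.68 in the Tie2-negative ones. In both genes Tie2-positive replicate 1 lay below all 3 Tie2-negative arrays, by 1.19 and 0.72 under the lowest of them. Ltf, the iron-binding protein lactoferrin, had levels of 5.74, 10.81 and 13.19 in Tie2-positive replicates 1, 2 and 3, against 6.69, 8.15 and 9.07 in the Tie2-negative replicates. Lcn2 (lipocalin 2, which captures bacterial siderophores) had levels of 4.75, 10.13 and 12.89, against 4.42, 6.17 and 7.80 in the Tie2-negative replicates. Ltf and Lcn2 gained the most between Tie2-positive replicates 2 and 3, with replicate 3 higher by 2.38 and 2.77, while Ngp and Camp differed by 1.34 and 1.38. Ngp and Camp were already at 13.01 and 12.47 on replicate 2, and the highest value of the deposited table was 14.78. Whether the upper end of the scale limited their gain was not tested. Camp had the widest range of the 10 members over the Tie2-positive arrays, 8.44 on the log2 scale.

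Ngp, Camp and Ltf all lie on mouse chromosome 9 and Lcn2 on chromosome 2, and none of the 4 is an immediate neighbour of another. The promoters of Ngp and Lcn2 are shown because they hold TTGCNNAA, a pattern of the kind bound by C/EBP factors, which drive secondary granule genes. The capitals mark it, as read on either strand.
Ngp: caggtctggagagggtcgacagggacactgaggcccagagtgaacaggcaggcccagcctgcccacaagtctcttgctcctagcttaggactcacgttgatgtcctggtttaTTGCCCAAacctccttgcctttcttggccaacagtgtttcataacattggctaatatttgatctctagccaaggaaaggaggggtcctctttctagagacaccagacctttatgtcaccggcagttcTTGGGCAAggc
Lcn2: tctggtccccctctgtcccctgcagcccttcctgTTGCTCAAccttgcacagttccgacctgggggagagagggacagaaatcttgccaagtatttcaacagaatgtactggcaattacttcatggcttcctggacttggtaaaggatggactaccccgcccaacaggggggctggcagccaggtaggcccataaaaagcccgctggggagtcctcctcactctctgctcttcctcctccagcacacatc
The Ngp stretch is chr9:110419558-110419807 on the plus strand and the Lcn2 stretch is chr2:32387740-32387989 on the minus strand (RefSeq, GRCm38.p6). TTGCNNAA was found before 3 of 4 secondary genes (Ngp, Ltf and Lcn2), 0 of 4 primary genes and 1 of 2 late genes (Mmp8), against 9.56% of the 32851 promoter entries. Camp held neither pattern in its 250 bases. These letters too were chosen with the promoters in view.

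The 2 late genes went separate ways. S100a8, which pairs with S100a9 to form the calcium-binding protein calprotectin, had log2 levels of 6.94, 12.63 and 13.69 in Tie2-positive replicates 1, 2 and 3, against 7.38, 9.09 and 9.65 in Tie2-negative replicates 1, 2 and 3. Mmp8, the neutrophil collagenase, had levels of 4.87, 4.59 and 5.88 in the Tie2-positive replicates, against 4.88, 5.61 and 6.02 in the Tie2-negative ones. S100a8 followed the primary and secondary genes, whereas no Tie2-positive array reached the highest Tie2-negative value of Mmp8. The only Mmp8 probe set read 4.59 to 6.02 on the 6 arrays, with a mean under the 40th percentile of all genes. A low mRNA level and a probe set that responds weakly cannot be told apart in these values. The probe set of S100a8 carries the suffix s_at, which marks a set that can match several transcripts. In human neutrophils MMP8 protein is stored in secondary granules, so the late class used here joins genes of different compartments.

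The promoters of S100a8 and Mmp8 are shown because they share AGGAAGT, here on the opposite strand and so printed as its reverse complement, while their levels differ in pattern.
S100a8: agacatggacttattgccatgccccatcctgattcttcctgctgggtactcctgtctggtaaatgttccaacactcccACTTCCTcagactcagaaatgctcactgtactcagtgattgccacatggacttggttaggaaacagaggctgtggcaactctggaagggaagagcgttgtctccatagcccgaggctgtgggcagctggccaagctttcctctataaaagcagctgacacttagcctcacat
Mmp8: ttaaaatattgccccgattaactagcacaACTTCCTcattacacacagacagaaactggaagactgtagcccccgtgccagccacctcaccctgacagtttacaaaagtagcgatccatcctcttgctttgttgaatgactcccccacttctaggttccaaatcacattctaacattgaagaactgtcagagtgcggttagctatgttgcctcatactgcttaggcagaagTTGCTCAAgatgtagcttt
The S100a8 stretch is chr3:90668821-90669070 and the Mmp8 stretch is chr9:7558179-7558428, both on the plus strand (RefSeq, GRCm38.p6). Mmp8 was the 1 member that held both patterns, with TTGCNNAA beginning 19 bases before its start, and the marked stretches do not overlap. It was also the member without the shared rise on Tie2-positive replicates 2 and 3.

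The primary and secondary classes were close to each other in how far Tie2-positive replicate 3 exceeded replicate 2. The median excess was 2.00 over the 4 primary, 1.88 over the 4 secondary and 1.17 over the 2 late genes, against -0.02 over all 18193 genes. Replicate 3 was above replicate 2 in 10 of 10 members, against 46.9% of all genes. The primary and secondary ranges overlapped, from 1.61 to 2.26 and from 1.34 to 2.77, so this difference did not separate those classes.

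The Tie2-negative arrays also differed in granule genes, and here the 3 primary proteases, but not Mpo, differed less than the secondary genes. Tie2-negative replicate 1 was lowest and replicate 3 highest in 10 of 10 members, against 23.0% of all genes. Replicate 3 exceeded replicate 1 by 0.09 for Elane, 1.60 for Prtn3 and 1.96 for Ctsg, and by 2.38 to 3.38 for the secondary genes. Mpo, with 3.23, fell inside the range of the secondary genes. Over all genes the median of this difference was 0.03. Elane stood at 6.35 to 6.44 on the Tie2-negative arrays and at 6.08 on Tie2-positive replicate 1. Whether a signal near background limited the spread of the proteases was not tested.

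Set against the highest Tie2-negative array, Tie2-positive replicate 2 was higher by a median of 3.49 for the primary and 2.21 for the secondary genes. Prtn3 had the largest excess (4.39) and Ltf the smallest of both classes (1.74). Tie2-positive replicate 3 was higher by a median of 5.43 for the primary and 4.61 for the secondary genes. The primary and secondary ranges overlapped on both arrays. They ran from 2.45 to 4.39 and from 1.74 to 3.79 on replicate 2, and from 4.53 to 6.31 and from 3.42 to 5.17 on replicate 3. Replicates 2 and 3 were both above every Tie2-negative array in 9 of 10 members, against 20.0% of all genes, and in those 9 replicate 1 was not, a pattern of 4.74% of all genes. Tie2-positive replicate 1 lay below all 3 Tie2-negative arrays in 7 of 10 members (Elane, Prtn3, Ngp, Camp, Ltf, S100a8 and Mmp8), against 44.3% of all genes. These counts describe the pattern for which the genes were proposed and support nothing further.

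**Figure D2:**
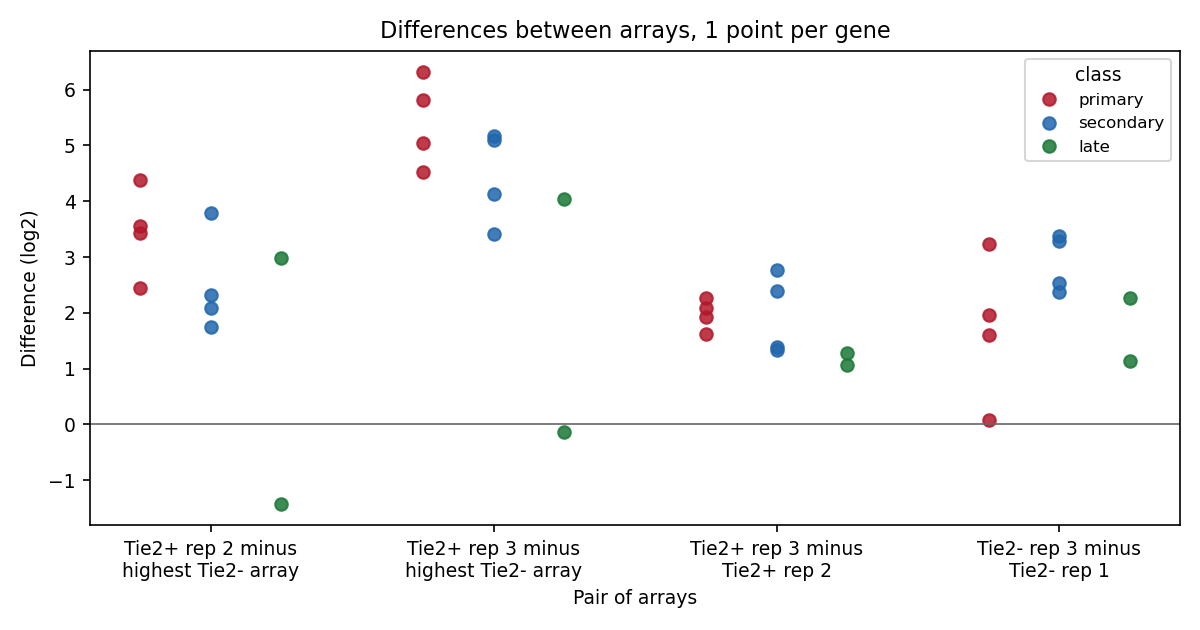
Log2 difference (vertical axis) for 4 pairs of arrays (horizontal axis), 1 point per gene, coloured by class. Tie2-positive replicate 3 exceeds replicate 2 in all 10 genes (1.06 to 2.77), and the point near 0 for Tie2-negative replicate 3 minus replicate 1 is Elane (0.09).

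No member passed the comparison of the populations, and the Tie2-positive arrays spread widely in all but Mmp8. Tie2-positive minus Tie2-negative differences on the log2 scale ran from 2.25 to 3.75 for the primary genes (median 3.30) and from 1.75 to 3.13 for the secondary genes (median 2.44), with n = 3 per population. Prtn3 averaged 10.50 ± 4.17 in the Tie2-positive and 6.76 ± 0.81 in the Tie2-negative samples (SD, n = 3 each), a difference of 3.75 ± 1.89 (SE). S100a8 differed by 2.38 ± 1.70 (SE) and Mmp8 by -0.39 ± 0.41 (SE). In all 10 members the difference between the means was smaller than the SD of the Tie2-positive arrays, so the order of the 2 populations is not settled for any of them.

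In limma, fitted over 18193 genes with Benjamini-Hochberg adjustment and a threshold of 0.05, 0 of 10 members passed in either direction, against 7.39% of all genes (4.86% as higher), with adjusted p between 0.226 and 0.585. Without adjustment, limma gave 0 of 10 members a p under 0.05, against 28.6% of all genes. The arrays of the populations overlapped in all 10 members, while 39.1% of all genes had no overlap. The median difference over all genes was -0.11. The SD over the Tie2-positive arrays was between 2.46 and 4.53 for the 9 members other than Mmp8, against a median of 0.23 over all genes. Only 98 of 18193 genes (0.539%) had an SD at or above that of Elane, the lowest of the 9, and only 14 (0.0770%) at or above that of Ltf, the lowest secondary gene.

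The result depended on 1 array. Without Tie2-positive replicate 1, 9 of 10 members passed as higher, against 8.22% of all genes, and Mmp8 did not (limma adjusted p = 0.720). In that fit the differences were 6.09 ± 0.64 (SE) for Prtn3, 5.51 ± 0.94 (SE) for Mpo, 5.52 ± 0.75 (SE) for Camp and 4.16 ± 0.90 (SE) for Ngp. The limma adjusted p of the 9 ran from 0.00239 to 0.0285. With array weights, which gave 0.246 to Tie2-positive replicate 1 and 5.83 to replicate 2, 7 of 10 passed as higher, against 12.0% of all genes, while Ngp, Ltf and Mmp8 did not (limma adjusted p = 0.0625, 0.0661 and 0.101). With Tie2-positive replicate 1 as the population's lone array, all 10 differences were negative, from -3.07 for Ngp to -0.32 for Elane. Of all genes, 40.1% were above the Tie2-negative mean on that array. The left-out arrays were known beforehand to differ in these genes, so these fits describe the dependence and are no separate evidence.

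**Figure D3:**
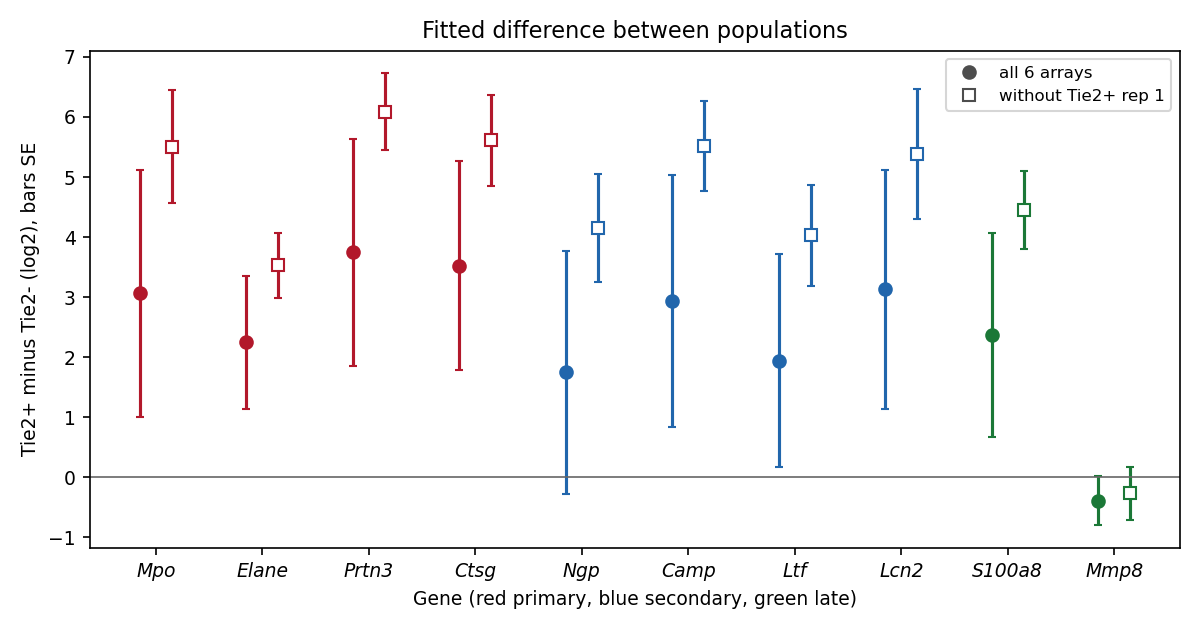
Fitted Tie2-positive minus Tie2-negative difference on the log2 scale (vertical axis) for each gene (horizontal axis), with filled circles for all 6 arrays, open squares for the fit without Tie2-positive replicate 1, and bars for 1 SE. Without that array Prtn3 moves to 6.09 and Ngp to 4.16 with smaller errors, while Mmp8 stays near 0 (-0.39 and -0.26).

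Further granule genes and granulocyte regulators were read from lists written from textbook knowledge with earlier results of these data known. The lists held 40 genes, 6 of them regulators, and 32 were measured, 5 of them regulators. Among the 32, regulators included, limma called 2 higher and 0 lower, a share near that of all genes (7.39%, and 4.86% as higher). Their median difference was 1.34. The 2 called genes were Cyba, a subunit of the NADPH oxidase (1.77 ± 0.37, SE; limma adjusted p = 0.0401), and Cebpd, a C/EBP transcription factor (4.03 ± 0.58, SE; limma adjusted p = 0.0154). Cebpd had log2 levels of 10.05, 8.10 and 9.62 in Tie2-positive replicates 1, 2 and 3, against 4.41, 5.50 and 5.78 in the Tie2-negative replicates, and was thus highest on Tie2-positive replicate 1, where 9 of the 10 members were lowest among the Tie2-positive arrays. Cyba likewise was at 10.33 on Tie2-positive replicate 1, above every Tie2-negative array (8.60 to 9.46). On that array, then, both genes stood above the Tie2-negative samples, which none of the 10 members did. Both calls were lost in limma without Tie2-negative replicate 1 (adjusted p = 0.140 for Cyba and 0.0755 for Cebpd) or replicate 2 (0.0955 and 0.0736), and the call of Cyba was also lost when Tie2-positive replicate 2 or 3, or the third Tie2-negative array, was left out (0.0842, 0.0583 and 0.114). Without Tie2-positive replicate 1 limma called 15 of the 32, all higher, against 8.22% of all genes.

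Of 6 measured further primary genes, 0 passed in limma, against 7.39% of all genes. Tie2-positive replicates 2 and 3 were above every Tie2-negative array in all 6, against 20.0% of all genes. Serpinb1a, an inhibitor of the neutrophil serine proteases, differed by 2.74 ± 0.94 (SE), Lyz2, a lysozyme, by 2.42, and Cst7, a cystatin, by 2.37. Serpinb1a was the only one of these 3 with Tie2-positive replicate 1 (7.77) above the Tie2-negative arrays (6.14 to 7.50). Of 10 further secondary genes, 1 passed (Cyba), and replicates 2 and 3 were above every Tie2-negative array in 8, to be read against the same 20.0%. Chil3, a chitinase-like protein, had log2 levels of 3.77, 10.70 and 12.71 in Tie2-positive replicates 1, 2 and 3, against 3.70, 5.69 and 6.48 in the Tie2-negative replicates. Olfm4 and Cd177, both proteins of neutrophil granules or their membranes, differed by 2.68 and 2.32 without a call.

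The further late genes, like S100a8 and Mmp8, held both kinds of pattern. Of 11 measured, 0 passed in limma (7.39% of all genes did), and Tie2-positive replicates 2 and 3 were both above every Tie2-negative array in 5 (20.0% of all genes). S100a9, the partner of S100a8, had log2 levels of 6.18, 11.74 and 13.34 in Tie2-positive replicates 1, 2 and 3, against 6.12, 7.58 and 8.33 in the Tie2-negative replicates, an order shared with S100a8, its neighbour on chromosome 3. Mmp9, the gelatinase of the tertiary granules, had levels of 5.78, 5.77 and 6.89, against 6.53, 6.41 and 6.67 in the Tie2-negative replicates, and like Mmp8 showed no common rise on Tie2-positive replicates 2 and 3 (it was named after its values were seen). Stfa2l1, a stefin, and Wfdc21 differed by 2.22 and 2.00 without a call.

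Some of these genes separated Tie2-positive replicate 3 from replicate 2 by more than any member did. The excess of replicate 3 was 3.58 for Wfdc21, 3.51 for Olfm4 and 3.25 for Cd177, and, among genes named after their values were seen, 3.85 for the integrin chain Itgb2l and 3.19 for the formyl peptide receptor Fpr2, against at most 2.77 among the members (Lcn2). Itgb2l had log2 levels of 6.42, 6.34 and 10.18 in the Tie2-positive replicates, against 6.48 to 6.56 in the Tie2-negative ones, and so was high on Tie2-positive replicate 3 alone. The median excess of replicate 3 over replicate 2 was 1.38 for the further primary, 2.55 for the further secondary and 1.30 for the further late genes. Whether this difference between lists exceeds chance was not tested. On replicate 2 Wfdc21, Olfm4 and Cd177 stood at 7.37, 8.35 and 6.43. The members other than Mmp8 stood there at 8.89 (Elane) to 13.01 (Ngp), nearer the highest deposited value of 14.78. Whether the upper end of the scale limited the excess of the members was not tested. Among the regulators, Cebpa differed by 1.17 and Gfi1, a repressor needed for neutrophil development, by 1.09, both without a call, and Gfi1 stood at 8.85 in Tie2-positive replicate 3 against 6.17 in replicate 2.

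**Figure D4:**
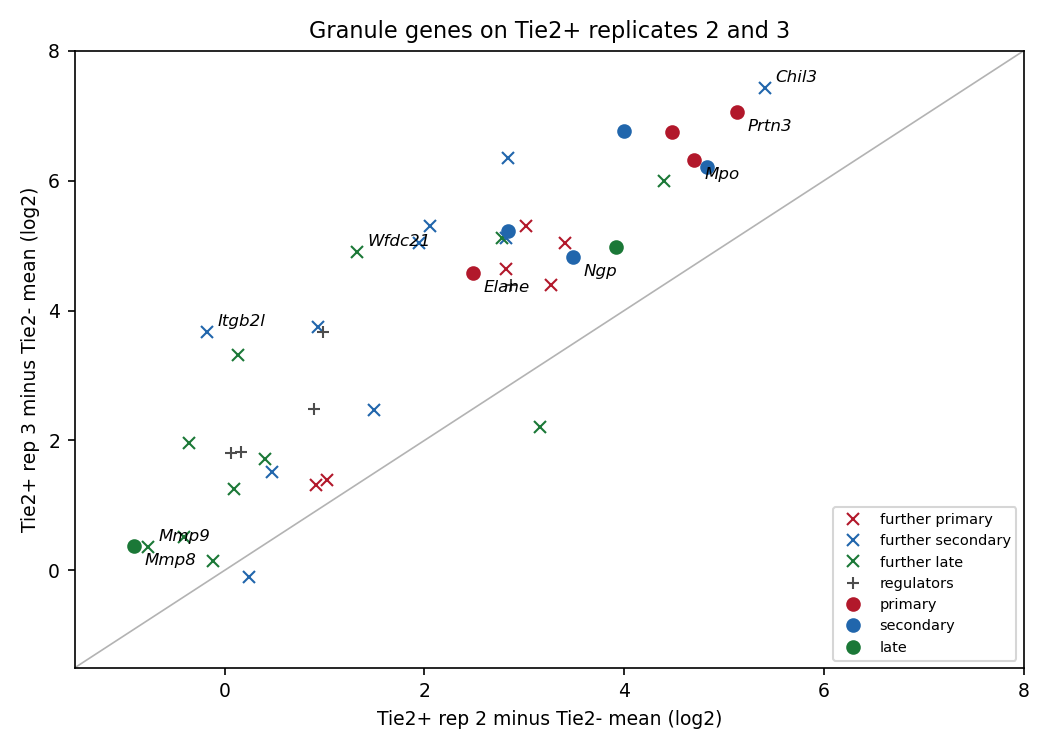
Log2 difference from the Tie2-negative mean on Tie2-positive replicate 2 (horizontal axis) and replicate 3 (vertical axis), 1 point per gene, with members as dots, further granule genes as crosses, regulators as plus signs and the line of equal values in grey. All members lie above the line, Mmp8 and Mmp9 lie near the origin, and Itgb2l is near 0 on replicate 2 but at 3.67 on replicate 3.

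The members other than Mmp8 ran together over the arrays. Pearson's r over the 6 arrays, which include both populations, was between 0.865 and 0.9997 in the 36 pairs without Mmp8 and between 0.169 and 0.404 in its 9 pairs. Among 1436 other genes spanning at least 3 on the log2 scale, those most like the mean primary profile were S100a9 (r = 0.998), Chil3 (0.997), Alox5ap (0.995), Lyz2 (0.995) and Nkg7 (0.994). Most like the secondary profile were Ikzf2 (0.999), Lyz1 (0.998), Ccl9 (0.995), Cpa3 (0.992) and Stfa3 (0.991). Ccl9, Lyz1, Ikzf2 and Stfa3 were also among the 5 most like the late profile, with Pxylp1 (0.984). The probe set of Lyz1 carries the suffix x_at and, like the s_at set of S100a8, may match several transcripts. The late profile is set largely by S100a8, since Mmp8 varies little. With 6 arrays in 2 populations these coefficients only rank likeness.

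Markers of other cells differed from list to list in their order over the arrays. The mean log2 level of 5 measured eosinophil, basophil and mast cell genes (of 6 listed) was 4.74, 8.94 and 10.92 in Tie2-positive replicates 1, 2 and 3, against 4.67 to 5.42 in the Tie2-negative samples, and 5 of 5 were above every Tie2-negative array on replicates 2 and 3, against 20.0% of all genes. For 5 megakaryocyte and platelet genes (of 7) it was 6.92, 9.65 and 8.82, against 6.25 to 6.37 in the Tie2-negative samples. Endothelial genes ran the other way among the Tie2-positive arrays, with means over 7 genes of 11.70, 10.33 and 9.001 in replicates 1, 2 and 3, against 5.28 to 5.34 in the Tie2-negative samples. Monocyte and macrophage genes had means over 10 genes of 6.32, 6.36 and 7.12 in Tie2-positive replicates 1, 2 and 3, against 5.71 to 6.08 in the Tie2-negative samples, and these means join genes of opposite order. Mrc1, a mannose receptor and the 1 gene of the list called by limma (4.89 higher, adjusted p = 0.0205), had log2 levels of 11.00, 10.35 and 7.73 in Tie2-positive replicates 1, 2 and 3, against 4.57 to 5.03 in the Tie2-negative samples. F13a1 (coagulation factor XIII A chain), with 5.15, 6.60 and 10.73 in the Tie2-positive replicates and 5.03 to 6.46 in the Tie2-negative ones, and Csf1r, with 6.88, 7.33 and 9.61 against 6.90 to 7.47, were highest on Tie2-positive replicate 3, as the granule genes were. These 3 were named after their values were seen, and the list did not follow any of them as a whole. Replicate 3 was above replicate 2 in 7 of the 10 genes, against 46.9% of all genes. Replicates 2 and 3 were both above every Tie2-negative array in 3 of the 10, against 20.0%. Ccr2, with 7.25, 6.98 and 6.94 in the Tie2-positive replicates, lay below the Tie2-negative ones (7.60 to 7.97). C1qa, C1qb and C1qc were not highest on Tie2-positive replicate 3.

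Erythroid means over 6 genes were 5.82, 7.99 and 5.85 in Tie2-positive replicates 1, 2 and 3, against 12.44, 11.16 and 10.86 in Tie2-negative replicates 1, 2 and 3. The Tie2-negative sample with the highest erythroid mean, replicate 1, had the lowest level of all 10 granule members in its population. B-lineage means over 6 genes were 5.50 to 5.84 in the Tie2-positive and 7.81 to 9.75 in the Tie2-negative samples. The deposited values carry no detection calls, so no marker can be called absent. The part of other cell types in the granule gene values was not tested.

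**Figure D5:**
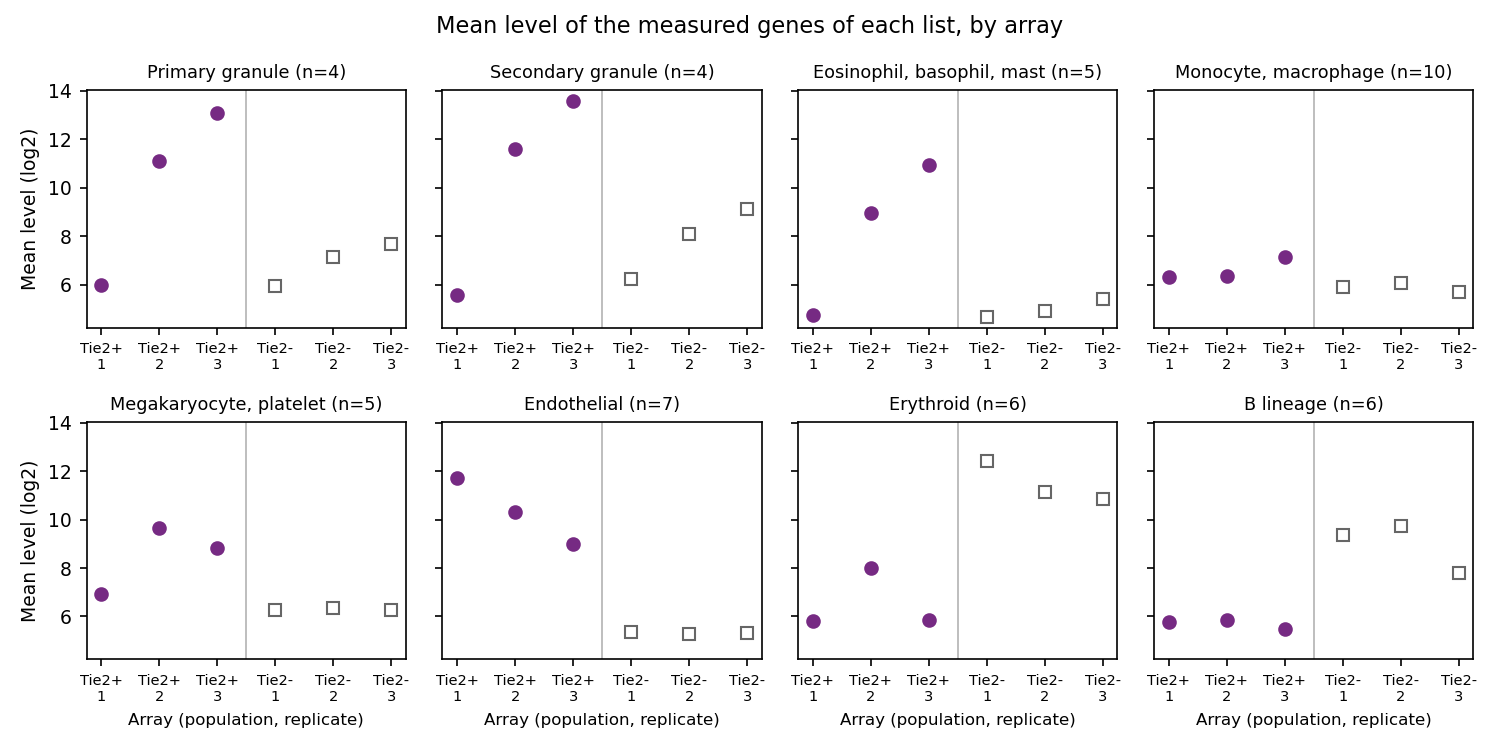
Mean log2 level of the measured genes of each list (vertical axis) on each array (horizontal axis), with filled circles for Tie2-positive and open squares for Tie2-negative replicates and n the number of genes. Levels are comparable between arrays within a panel. Primary granule means reach 11.12 and 13.09 on Tie2-positive replicates 2 and 3, while endothelial means are highest on replicate 1 (11.70).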

How the data were processed

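RNA of 6 sorted cell samples was amplified in 2 rounds and hybridised to Affymetrix Mouse 430 2.0 arrays, read with GCOS 1.1.1, per the labels' protocols. The deposited table holds a value for each probe set on each array; its values lie from 2.56 to 14.78 and were read as log2 from that range. How the authors summarised and normalized the probe signals into these deposited log2 values is not stated in the labels or the file header. Of 45101 probe sets 64 controls were left out, and 34945 carried 1 gene symbol of the platform annotation (932 several, 9160 none). Each of 18193 genes was represented by its probe set with the highest mean. The arrays' 75th percentiles differed by 0.27, above the limit of 0.1, so values were quantile normalized. The percentiles ran from 7.45 to 7.53 in the Tie2-positive and from 7.26 to 7.33 in the Tie2-negative arrays, so this also removed a difference between the populations. limma 3.58.1 in R 4.3.3 (lmFit, eBayes with trend, two-sided, no covariates) was fitted over all genes with Benjamini-Hochberg adjustment, and was tested on simulated data. No pair of arrays was identical (0 pairs). Arrays have no read depth, and their number limits the precision.

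Members, lists and alternatives were chosen with earlier results of these data known. Named were all members, the called genes and the up to 3 largest differences of each further list, and the 5 genes most correlated with each class mean among those spanning at least 3 on the log2 scale. Of the 40 genes of the further lists, 8 were not analysed here. The coordinates printed belong to RefSeq's promoter table, which held all 10 members. The alternatives tried were a block for the replicate number, values as deposited, median centring, a filter at the 40th percentile, the mean of all probe sets, probe sets without x_at or s_at, eBayes without trend or robust, array weights, and arrays left out.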

Additional observations from a re-analysis of the deposited data

How the results depend on the processing

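No member passed with the values as deposited, median centring, the filter, the mean of probe sets, without x_at or s_at sets, or with eBayes without trend or robust, and the class medians moved by less than 1 SD of the Tie2-positive arrays. The late median, 0.99 over 2 genes, became 2.38 with the filter and -0.39 without x_at or s_at sets, since each left 1 gene (S100a8 and Mmp8 in turn). Array weights gave 4639 called genes, 7 members and 11 genes of the further lists. Leaving out single arrays gave 0 to 2148 called genes, 0 to 9 members, 0 to 15 further genes, and class medians of 1.68 to 5.56 (primary), 0.80 to 4.77 (secondary) and 0.15 to 2.09 (late). The genes called numbered 2148 without Tie2-positive replicate 1, 504 without replicate 2, 378 without Tie2-negative replicate 3, and 0 when either of the other Tie2-negative arrays, replicates 1 and 2, was left out (4012 and 3980 at an unadjusted limma p under 0.05). The further genes called numbered 15, 1 and 1 without Tie2-positive replicates 1, 2 and 3, and 0, 0 and 1 without Tie2-negative replicates 1, 2 and 3. Leaving out Tie2-positive replicates 2 and 3 together, with the lone array assumed to vary like the other population, gave 3637 called genes, 5 further genes (1 higher) and class medians of -0.79 (primary), -2.23 (secondary) and -1.20 (late). Members then turned to -1.82 (Mpo), -0.32 (Elane), -0.94 (Prtn3), -0.64 (Ctsg), -3.07 (Ngp), -2.23 (Camp), -2.23 (Ltf), -1.38 (Lcn2) and -1.77 (S100a8), and this follows from the levels on replicate 1.

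With the replicate block limma called 0 genes (5080 at an unadjusted p under 0.05), 0 members (adjusted p from 0.139 to 0.335) and 0 further genes. Deviations of same-numbered arrays correlated at 0.140, 0.0050 and 0.186, so the numbers were not taken as pairs, although 5 of 6 arrays correlated best with their own number. The members themselves rose with the number in both populations. Tie2-negative replicate 1 was lowest and replicate 3 highest in 10 of 10 members, against 23.0% of all genes. Tie2-positive replicate 2 exceeded replicate 1 in 9 of 10 (49.2% of all genes), and replicate 3 exceeded replicate 2 in 10 of 10 (46.9%). Other offsets before the log were not run, since the values are on a log scale. Signal over background is unknown, because the values carry no detection calls.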

Other observations

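Granule genes of other granulocytes were, like those of neutrophils, highest on replicate 3 and lowest on replicate 1 of the Tie2-positive population. Prg2, the major basic protein of eosinophils, had log2 levels of 4.58, 10.54 and 12.69 in Tie2-positive replicates 1, 2 and 3, against 4.72, 4.03 and 4.91 in Tie2-negative replicates 1, 2 and 3. Epx, eosinophil peroxidase, had levels of 5.13, 7.50 and 9.92, against 4.59, 5.25 and 4.62 in the Tie2-negative replicates. Mcpt8, a basophil protease gene that neighbours Ctsg on chromosome 14, had levels of 5.29, 9.33 and 10.80, against 5.15, 5.31 and 5.86 in the Tie2-negative replicates. None of the 5 measured genes of these cells passed in limma (adjusted p from 0.158 to 0.346), against 7.39% of all genes (4.86% as higher). With only 5 genes this count cannot be told from that share.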
